A study of Saccharomyces cerevisiae with 8 samples.

Results

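The genes described here are 53 ribosome biogenesis factors of budding yeast, Saccharomyces cerevisiae. They were chosen by symbol and comprise every gene on the array named UTP, NOP or RRP with a number, which gave 18, 16 and 18 genes, together with NSR1. They are 53 of 5656 genes that have a probe set assigned to a single gene in the array's annotation. All 53 passed the filter on low signal that left 5475 genes for testing. The study compared diploid SK1 cells, a strain background that sporulates fast and synchronously, before meiosis and during it. The strains were wild type (MJL1720), mre11delta (YMD1599), rad50delta (RKD101) and spo11Y135F (RKD1312). The mutants lack MRE11 or RAD50, whose products form a complex that makes and processes meiotic DNA breaks, or carry a catalytically inactive SPO11, the enzyme that cuts the DNA. Each strain gave 1 array at 0 h, from cells grown in SPS presporulation medium, and 1 array at 4 h in sporulation medium at 30C, 8 arrays in all. Polyadenylated RNA was selected and hybridised to Affymetrix YG-S98 arrays. By the labels, RNA of 3 arrays was extracted with Trizol, namely wild type at 0 h and mre11delta at 0 h and 4 h. RNA of the other 5, namely wild type at 4 h and both times of rad50delta and spo11Y135F, was extracted with glass beads and RNeasy columns.

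Ribosome biogenesis starts in the nucleolus, where RNA polymerase I makes a long precursor that is folded, modified, cut and packed with ribosomal proteins. UTP proteins were named for their association with the U3 small nucleolar RNA. Most of them assemble with it on the start of the precursor into the small-subunit processome, in modules called UTP-A, UTP-B and UTP-C. NOP proteins were named for the nucleolus and RRP proteins for ribosomal RNA processing. These names cover small-subunit and large-subunit assembly factors, the protein core of box C/D small nucleolar ribonucleoproteins and subunits of the RNA exosome, the complex that trims RNA from its 3′ end. In budding yeast the genes for these factors form a large regulon that is transcribed strongly in rich medium and shut down on starvation or stress. Sporulation medium lacks nitrogen and offers a poor carbon source.

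As a check of the labels, RAD50 had a signal of at most 3.4 in both rad50delta arrays and at least 88.4 in the others. MRE11 did not check its label, since its signal was 84.0 at 0 h and 108 at 4 h in the library labelled mre11delta and ran from 45.0 to 192 elsewhere. For that reason mre11delta below always stands for the arrays that carry this label. The summed signal of 7 early meiotic marker genes was between 125 and 562 in the 0 h arrays and between 7712 and 13623 in the 4 h arrays. The summed signal of 12 haploid-specific genes, which diploids repress, was between 811 and 1602 at 0 h and between 1761 and 7152 at 4 h, with 0 to 5 of the 12 under a signal of 21 in an array, so these markers were not absent. The median signal of the arrays ran from 97.3 to 196. Where the arrays' overall level matters, a gene's level or change is also given relative to the median of all tested genes on the same arrays. Signal is not comparable between probe sets, so single genes are not ranked by level. Summed signals and levels relative to the median gene are read only between arrays. These are bulk cultures, in which less RNA per cell and fewer cells that express a gene cannot be told apart. Nothing in the labels describes replicate cultures, so the strains serve as replicates and p-values measure only the spread between these arrays.

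The factors' level relative to the median gene was higher in both Trizol arrays at 0 h than in the other 6 arrays. Their median level on the log2 scale, relative to the median of all tested genes on the same array, was 0.24 in wild type and 0.32 in mre11delta at 0 h. It was -0.36 in rad50delta and -0.62 in spo11Y135F at 0 h. At 4 h it was -1.26 in wild type, -0.97 in mre11delta, -0.49 in rad50delta and -0.15 in spo11Y135F. The lowest level was thus in wild type at 4 h, and spo11Y135F was the only strain whose median relative level was higher at 4 h than at 0 h. Of the 53 genes, 50 were above a signal of 21, the floor set for the mean of a tested gene, in all 8 arrays, and NOP53, UTP20 and UTP6 fell below it in at least 1.

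**Figure D1:**
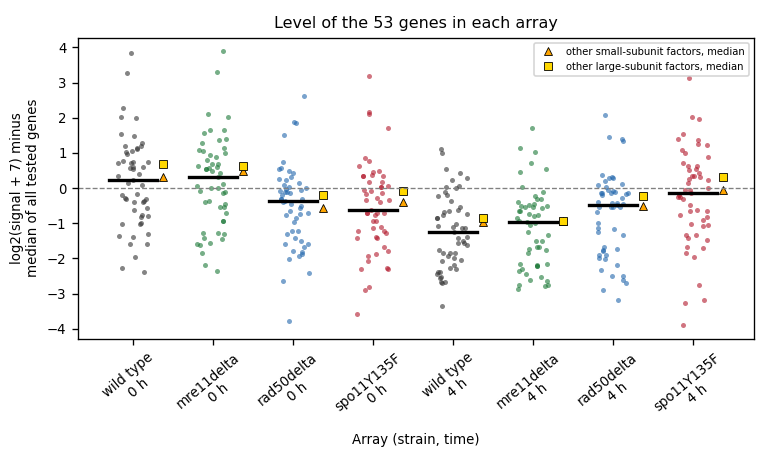
Level of each of the 53 factors in each array, as log2(signal + 7) minus the median of all tested genes on that array, with a bar at the median of the 53 and marks for the medians of 2 lists of other assembly factors. The medians of the 53 are 0.24 and 0.32 in the Trizol arrays at 0 h and between -1.26 and -0.15 in the other 6 arrays.

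**Figure D2:**
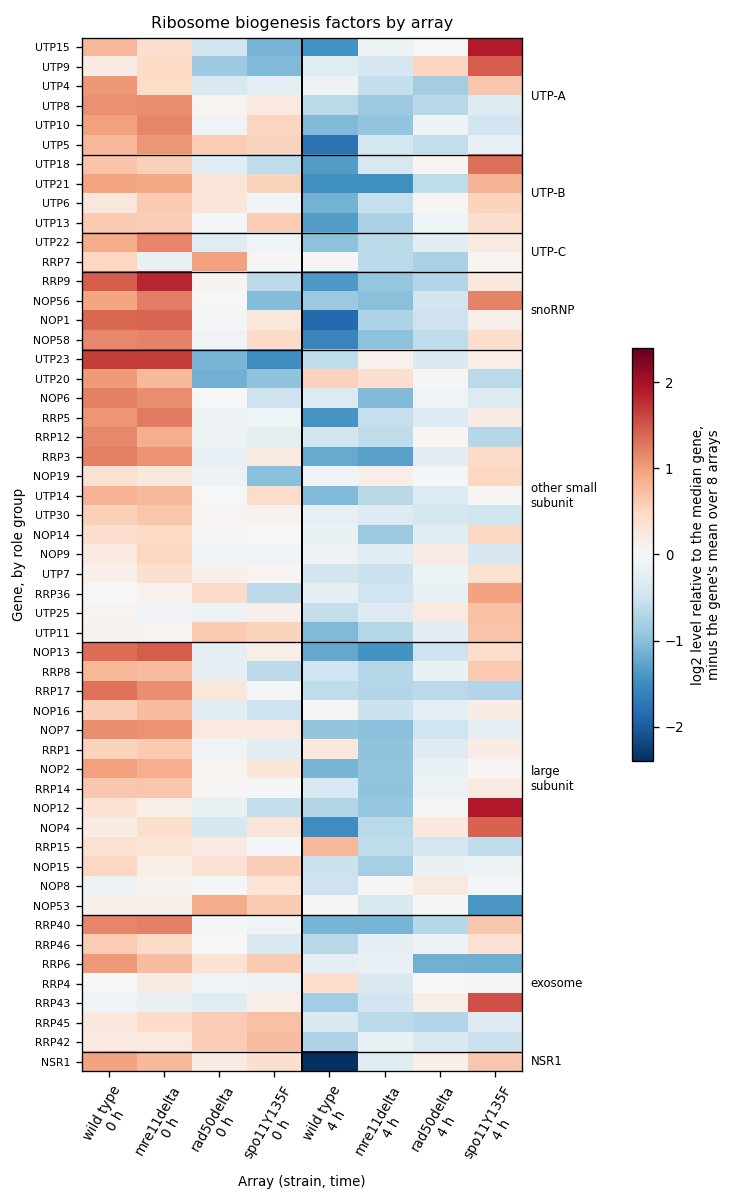
Log2 level of each factor relative to the array's median gene, minus the gene's own mean over the 8 arrays, with genes in rows ordered by role and arrays in columns, 0 h at the left and 4 h at the right. The wild-type and mre11delta columns are high at 0 h for most genes and low at 4 h, while the rad50delta and spo11Y135F columns lack that contrast.

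Before meiosis, many of these factors differed between the cultures. At 0 h, 21 of the 53 genes were lower in rad50delta and spo11Y135F than in wild type and mre11delta, and 0 were higher, by limma with Benjamini-Hochberg adjustment over all 5475 genes. Over all tested genes 18% were called lower and 15.7% higher, so that 39.6% of the factors stood against 18% of genes on the lower side. The median difference of the 53 was -0.73 on the log2 scale, against -0.01 for all genes, and 45 of the 53 estimates were below 0, against 50.4% of all genes. Both RNeasy arrays were below both Trizol arrays for 39 of the 53, against 35.9% of all genes, and above both for 3, against 32.8%. With each array centred on its median, 29 were called lower, among them all of the 21, against 23.7% of all genes.

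Single strains seldom stood apart at 0 h. The wild type had the highest value of the 4 strains in 29 of the 53 factors, against 31.5% of all genes, and spo11Y135F in 10, against 47.3%. With levels taken relative to the median gene, the highest value was in wild type for 21 and in mre11delta for 22, against 20.2% and 26.9%. The lowest value was in rad50delta for 41, against 44.9%, but relative to the median gene it was in rad50delta for 22 and in spo11Y135F for 24, against 21.4% and 31.6%. At least 2-fold below the other 3 strains were 2 genes in rad50delta (NOP58 and UTP10), against 2.25% of all genes, and 0 in wild type and spo11Y135F, against 0.402% and 0.566%. Neither NOP58 nor UTP10 stood apart relative to the median gene, with 0 genes in rad50delta, against 0.658%, and 1 in spo11Y135F, against 1.57%. At least 2-fold above the others were 0 genes in wild type, mre11delta and spo11Y135F, against 0.183%, 0.0365% and 3.32%. Each of these counts is from 1 array per strain and has no test.

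The extraction method split the 0 h arrays exactly as this comparison did, so the method and the pair of strains cannot be told apart. The test has 2 arrays on each side, and 17 of the 21 calls were lost without either Trizol array: 3 of the 21 were called without wild type (UTP23, RRP9 and UTP20) and 4 without mre11delta (the same 3 and UTP15). Without rad50delta, 18 of the 21 were still called, all but RRP3, UTP4 and UTP8, and without spo11Y135F 20 of them, all but UTP4. The wild-type and mre11delta 0 h arrays were the most alike pair in the series, with a correlation of 0.985 across all genes and 45 of the 53 factors within 1.25-fold of each other. For rad50delta and spo11Y135F at 0 h the correlation was 0.966, and 15 of the 53 were within 1.25-fold. The summed signal of the stress markers HSP12, CTT1, DDR2, HSP26 and TPS2 followed the split. It was 6617 and 3137 in the Trizol arrays and 20091 and 19295 in the RNeasy arrays at 0 h. Of these 5 genes, 3 were called higher in the RNeasy arrays, against 15.7% of all genes, and 1 had an estimate below 0, at -1.16. The ratio of 3′ to 5′ signal of the TBP control did not follow the split, at 3.55 and 3.92 in the Trizol arrays and 3.83 and 2.00 in rad50delta and spo11Y135F. The part of stress or of extraction in the difference was not tested.

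**Figure D3:**
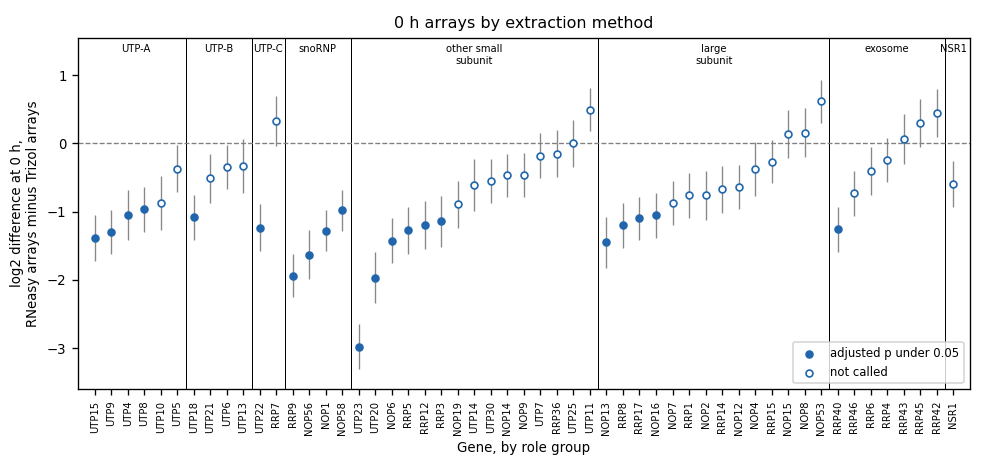
Difference at 0 h between the RNeasy arrays (rad50delta, spo11Y135F) and the Trizol arrays (wild type, mre11delta) for each of the 53 factors, in log2(signal + 7) with limma's standard error as bars and genes ordered by role. Filled points mark the 21 genes with an adjusted p under 0.05, all of them on the lower side, with UTP23 farthest from 0 at -2.98.

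All 4 proteins of box C/D small nucleolar ribonucleoproteins in the set were called lower in the RNeasy strains at 0 h, against 18% of all genes. NOP1 (YDL014W) encodes fibrillarin, the methyltransferase of these particles, and its signal was 2316 in wild type and 2145 in mre11delta at 0 h with Trizol, 705 in rad50delta and 1188 in spo11Y135F at 0 h with RNeasy, and 197, 899, 952 and 1148.5 in the same strain order at 4 h. The 2 Trizol values at 0 h were the highest of the 8 arrays, and the wild type at 4 h was the lowest. At 0 h the difference was -1.28 ± 0.31 (estimate ± SE, log2), a 2.42-fold lower level with an adjusted p of 0.00731. NOP56 (YLR197W), a scaffold protein that pairs with NOP58 in the same particles, had a signal of 582 in wild type and 648 in mre11delta at 0 h with Trizol, 239 in rad50delta and 157 in spo11Y135F at 0 h with RNeasy, and 130.0, 252, 329.9 and 819 in the same strain order at 4 h. It was lowest in wild type at 4 h and highest in spo11Y135F at 4 h, the only array above the Trizol values of 0 h. The 0 h difference was -1.63 ± 0.35, a 3.09-fold lower level (adjusted p = 0.00417).

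NOP58 (YOR310C), the partner of NOP56, had a signal of 3465 and 3257 against 1191 and 2416 at 0 h, Trizol against RNeasy, and of 427, 1321.5, 1541 and 2462 in wild type, mre11delta, rad50delta and spo11Y135F at 4 h. The rad50delta value was at least 2-fold under that of every other strain at 0 h as deposited, though not relative to the median gene. The 0 h difference was -0.98 ± 0.30 (adjusted p = 0.0249), and without rad50delta the estimate was -0.47. NOP58 is represented by 4 probe sets, and all 4 had lower estimates in the RNeasy strains. RRP9 (YPR137W) is the protein found specifically in the U3 particle. Its signal was 262 in wild type and 311 in mre11delta at 0 h with Trizol, 76.7 in rad50delta and 62.8 in spo11Y135F at 0 h with RNeasy, and 24.3, 80.1, 83.3 and 131 in the same strain order at 4 h. The RNeasy values at 0 h were close to the mre11delta and rad50delta values at 4 h, and far below the Trizol values at 0 h. This 3.83-fold lower level at 0 h, -1.94 ± 0.32 on the log2 scale (adjusted p = 0.000792), was called under all 13 settings that were tried.

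Of the 6 UTP-A genes, whose products form the module that binds the precursor first, 4 (66.7%) were called lower, against 18% of all genes. The RNeasy arrays were below the Trizol arrays for all 6, against 35.9% of all genes. UTP15 (YMR093W) had a signal of 278 in wild type and 193.5 in mre11delta at 0 h with Trizol, 92.4 in rad50delta and 77.3 in spo11Y135F at 0 h with RNeasy, and 43.4, 251, 242 and 727 in the same strain order at 4 h. The difference at 0 h was -1.39 ± 0.33, or 2.61-fold (adjusted p = 0.00736). UTP9 (YHR196W) had 73.7 and 83.1 against 24.6 and 30.8 at 0 h, Trizol against RNeasy, a difference of -1.30 ± 0.32 (adjusted p = 0.00902). At 4 h its signal was 41.1, 83.5, 146 and 223 in wild type, mre11delta, rad50delta and spo11Y135F, so that both RNeasy strains went from the lowest values of the series to the highest. UTP4 (YDR324C) and UTP8 (YGR128C) were close to the threshold, with differences of -1.05 ± 0.37 (adjusted p = 0.0449) and -0.97 ± 0.33 (adjusted p = 0.0425). For UTP4, the signal at 0 h was 111.5 and 64.4 against 29.4 and 47.4. For UTP8 it was 156 and 144 against 58.1 and 92.4. UTP10 (YJL109C) and UTP5 (YDR398W) did not pass, with differences of -0.87 ± 0.39 (adjusted p = 0.111) and -0.37 ± 0.34 (adjusted p = 0.438). The rad50delta value of UTP10, 176, was at least 2-fold below the other 3 at 0 h as deposited, which were 465, 483 and 370.2, though not relative to the median gene.

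UTP-B and UTP-C, the modules that join next and bridge to the U3 particle, had 1 gene called each. The shares were 25% and 50%, from 4 and 2 genes, against 18% of all genes called lower. In UTP-B, 1 of 4 passed: UTP18 (YJL069C), a protein with WD repeats that recruits the exosome helicase, had a signal of 356.5 and 299.5 against 145.5 and 156 at 0 h and a difference of -1.08 ± 0.33 (adjusted p = 0.0235). UTP21 (YLR409C), at 350.3 and 316 against 180.3 and 295, and UTP13 (YLR222C), at 301 and 267 against 152 and 330.4, are further WD-repeat proteins of UTP-B and did not pass, with adjusted p of 0.294 and 0.562. The wild-type and spo11Y135F values of UTP13 were close at 0 h, so that its groups overlapped. In UTP-C, UTP22 (YGR090W) was lower, at 128.5 and 145 against 41.5 and 69.8 and -1.23 ± 0.34 on the log2 scale (adjusted p = 0.0148), and 5 of its 6 probe sets had a lower estimate. Its binding partner RRP7 (YCL031C) had 148.5 and 81.8 against 169 and 116.5, with overlapping groups and an adjusted p of 0.526. The sign of the RRP7 difference, 0.33, turned to -0.076 without mre11delta.

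Among the 15 other small-subunit factors, 6 (40%, against 18% of all genes) were lower at 0 h, and 1 of them had the widest difference of the whole set. UTP23 (YOR004W), which acts with the small nucleolar RNA snR30 in small-subunit maturation, had a signal of 981 in wild type and 891 in mre11delta at 0 h with Trizol, 109.7 in rad50delta and 115 in spo11Y135F at 0 h with RNeasy, and 163, 559, 366 and 403.5 in the same strain order at 4 h. Its Trizol values at 0 h were the highest of the 8 arrays and its RNeasy values at 0 h the lowest, below even the wild type at 4 h. The level was 7.88-fold lower, -2.98 ± 0.33 on the log2 scale (adjusted p = 6.11e-05), and the estimate stayed between -3.05 and -2.74 over 13 settings, in all of which it was called. NOP6 (YDL213C), an RNA-binding assembly factor, had 403 and 343.5 against 137 and 131 and a difference of -1.43 ± 0.33 (adjusted p = 0.00568). RRP5 (YMR229C), a large RNA-binding protein needed for both subunits, had 552 and 576 against 193.5 and 271 and a difference of -1.27 ± 0.35 (adjusted p = 0.0143). In neither gene did the groups overlap at 0 h.

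RRP12 (YPL012W), which takes part in the export of both subunits from the nucleus, was lower by 2.29-fold, from 548 and 415 to 179 and 232 (adjusted p = 0.0199). RRP3 (YHR065C), an RNA helicase of the DEAD-box family, had 483 and 399 against 142 and 265 and an adjusted p of 0.0357. The sixth gene, UTP20 (YBL004W), a very large scaffold protein of the processome, is uncertain. Its values were 72.4 and 53.9 against 7.2 and 15.3, the RNeasy values being under the floor of 21, and of the 10 probe sets that carry its name 4 had a lower estimate. For the set kept, the difference was -1.97 ± 0.37 (adjusted p = 0.00173). UTP11 (YKL099C) went the other way, with 84.4 and 75.5 against 101 and 131 and both RNeasy values above both Trizol values, and its difference of 0.49 ± 0.32 did not pass (adjusted p = 0.253). The other 8 genes of this group, which include UTP14, an activator of a processome helicase, and NOP14, a scaffold protein, were not called at 0 h.

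Of 14 large-subunit factors, 4 (28.6%, against 18% of all genes) were lower at 0 h. NOP13 (YNL175C), an RNA-binding nucleolar protein, had a signal of 699 in wild type and 688 in mre11delta at 0 h with Trizol, 188 in rad50delta and 330.3 in spo11Y135F at 0 h with RNeasy, and 90.8, 166, 290.2 and 433 in the same strain order at 4 h. Its Trizol values at 0 h stood above all other arrays, and the wild type at 4 h was the lowest. The 0 h difference was -1.45 ± 0.37, 2.73-fold (adjusted p = 0.0103). RRP8 (YDR083W), which methylates an adenosine of the large ribosomal RNA, had 528 and 463 against 209 and 214 and a difference of -1.20 ± 0.33 (adjusted p = 0.0159). RRP17 (YDR412W), an exonuclease that trims precursor ends from the 5′ side, had 135 and 108 against 49.3 and 56.0 and a difference of -1.10 ± 0.32 (adjusted p = 0.0186). NOP16 (YER002W), a component of early large-subunit particles, had 515 and 524 against 227 and 267 and -1.06 ± 0.33 (adjusted p = 0.0295). Trizol and RNeasy values did not overlap in any of these 4 genes.

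NOP7 (YGR103W), the yeast homologue of pescadillo, just missed the threshold with 186 and 164 against 77.5 and 109 and a difference of -0.88 ± 0.32 (adjusted p = 0.055). NOP2 (YNL061W), a cytosine methyltransferase of the large ribosomal RNA, had 662 and 564 against 283 and 452 and an adjusted p of 0.126. NOP53 (YPL146C), a late factor that docks the exosome on the large-subunit precursor, had 39.4 and 36.2 against 57.6 and 66.0. Its RNeasy values were above its Trizol values, the estimate was 0.62 ± 0.32 and the adjusted p 0.158.

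Of the 7 exosome subunits, 1 (14.3%, under the 18% of all genes) was called lower. It was RRP40 (YOL142W), an RNA-binding subunit of the cap. Its signal was 345 and 321 against 117 and 156 at 0 h, a 2.39-fold lower level with an estimate of -1.26 ± 0.33 (adjusted p = 0.0123). RRP46 (YGR095C), a subunit of the ring, had 355 and 289.9 against 184 and 196.5, in the same order but with an adjusted p of 0.11. RRP42 (YDL111C) and RRP45 (YDR280W), also ring subunits, had 248 and 230.4 against 267 and 406 and 312 and 324.5 against 323 and 477. Both RNeasy values of RRP42 were above both Trizol values, while the RRP45 value of rad50delta lay between them, and neither passed (adjusted p = 0.349 and 0.553). NSR1 (YGR159C), the nucleolin-like protein of yeast, had 1171.5 and 939.9 against 552 and 861, with the RNeasy values lower, a difference of -0.60 ± 0.34 and an adjusted p of 0.193.

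At 4 h the wild type stood out at the low end. It was the lowest of the 4 strains in 48 of the 53 factors, against 55.0% of all genes, and at least 2-fold below each other strain on the scale of signal + 7 in 22, against 14.0% of all genes. The arrays differed in overall level, and relative to each array's median gene the counts were 24 and 4, against 17.5% and 1.53% of all genes. There is 1 array per strain and time, so these are values with no test. The wild-type 4 h array was extracted with RNeasy, as those of rad50delta and spo11Y135F were, and the mre11delta array with Trizol.

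The gap was widest for NSR1, with a signal of 64.0 in wild type at 4 h and 829, 988 and 1109.5 in mre11delta, rad50delta and spo11Y135F, of which the lowest was 11.8-fold above wild type on signal + 7 and 5.76-fold relative to each array's median gene. The other 3 strains were close to each other. UTP15 followed, with a wild-type value of 43.4 and a lowest other value 4.95-fold higher, or 2.51-fold relative to the median gene. Next were UTP5, at 48.5 against 282, 221 and 230.3, and NOP1, at 197 against 899, 952 and 1148.5. In both, the 3 mutants were again within a narrow band above the wild type. The lowest mutant was 4.11-fold above wild type for UTP5 and 4.43-fold for NOP1, and 2.26-fold and 2.17-fold relative to the median gene. As deposited, the 22 genes came from all roles: UTP-A (UTP5, UTP10, UTP15), all 4 genes of UTP-B (UTP6, UTP13, UTP18, UTP21), UTP22 of UTP-C, 3 box C/D proteins (NOP1, NOP58, RRP9), other small-subunit factors (RRP5, UTP11, UTP14, UTP23, UTP25), the large-subunit factors NOP2 and NOP4, the exosome subunits RRP40, RRP43 and RRP46, and NSR1. UTP6, at 12.4 in wild type, was below the floor there, so its size is less certain. NSR1, UTP15, UTP5 and NOP1 were, relative to the median gene, the 4 genes still at least 2-fold below each other strain. None of UTP-B, UTP-C, the other small-subunit factors, the large-subunit factors or the exosome was.

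At the high end, spo11Y135F had the highest value in 30 of the 53 at 4 h, against 26.0% of all genes, and was at least 2-fold above each other strain in 5, against 4.07%. Relative to the median gene these counts were 39, against 36.3%, and 10, against 9.15%. The 5 genes were UTP15, UTP21, NOP56, NOP12 and RRP43. NOP12 (YOL041C), an RNA-binding protein of large-subunit assembly, had 30.9, 59.2, 103 and 324 in wild type, mre11delta, rad50delta and spo11Y135F at 4 h. RRP43 (YCR035C), a ring subunit of the exosome, had 84.5, 238, 325 and 672. In mre11delta, 1 gene stood at least 2-fold above the other strains at 4 h, against 12.2% of all genes. It was RRP6 (YOR001W), the nuclear exonuclease of the exosome, with 34.7, 82.0, 33.3 and 24.1. The count was 0 relative to the median gene, against 2.7%, and RRP6 was at -2.20 in mre11delta and -2.26 in wild type on the log2 scale.

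Over the 4 strains together, no factor passed the test between 0 h and 4 h. The limma fit with strain as block called 0 of the 53 lower and 0 higher, against 4.02% and 10.6% of all genes, the smallest adjusted p was 0.228, and 0 of the 53 had an unadjusted p under 0.05, against 1482 (27.1%) of all genes. The median change was -0.26 on the log2 scale, against 0.19 for all genes, and 35 of the 53 estimates were below 0, against 42.4% of all genes. The widest estimates were -1.10 ± 0.58 for UTP5 (adjusted p = 0.229), -1.09 ± 0.62 for NOP1 (adjusted p = 0.268), and 1.03 ± 0.58 on the other side for UTP9 (adjusted p = 0.264). Scaling mattered here: with each array centred on its median, RRP6, UTP5 and RRP17 were called lower with adjusted p of 0.0326, 0.0435 and 0.0489, against 10.2% lower and 7.47% higher of all genes. Within rad50delta and spo11Y135F alone, 4 were called higher at 4 h, against 15.7% higher and 6.48% lower of all genes: UTP9, UTP15, NOP12 and UTP23. The median relative to all genes was then 0.29, against -0.45 over the 4 strains. UTP5, RRP45, RRP6 and RRP17 had lower values at 4 h in every strain, against 10.8% of all genes, and RRP4, a cap subunit of the exosome, was higher at 4 h in every strain, against 21.9%. Of the 53, 16 were lower relative to the median gene in every strain, against 27.6% of all genes, and 0 were higher, against 17%.

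The strains were then read one by one, without a test. In wild type most values were lower at 4 h, with a median change of -1.55 on the log2 scale against -0.37 for all genes, and 51 of 53 below 0. In mre11delta the median was -0.30 against 0.74, with 38 of 53 below 0 and 51 below the median change of all genes. In rad50delta it was 0.65 against 0.61, with 44 of 53 above 0. In spo11Y135F it was 0.35 against -0.12, with 34 of 53 above 0. The factors' median change minus the median change of all genes was thus -1.18 in wild type, -1.03 in mre11delta, 0.04 in rad50delta and 0.47 in spo11Y135F. This measure subtracts the median of the changes and not each array's median, so it can differ from the shift in median relative level. In rad50delta that level was -0.36 at 0 h and -0.49 at 4 h. The wild-type pair also spans both extraction methods, Trizol at 0 h and RNeasy at 4 h, so time and method cannot be told apart in that strain. In the other 3 strains both arrays were made by the same method.

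By role, the box C/D proteins were the group with the lowest median in mre11delta, at -1.32 on the log2 scale, and were at -3.05 in wild type, 0.40 in rad50delta and 0.50 in spo11Y135F. The UTP-A genes had medians of -2.16, -0.36, 0.63 and 0.25 in the same strain order, and the UTP-B genes -2.27, -0.39, 0.72 and 0.52. Both modules thus had opposite signs in the strain pairs. The large-subunit factors had -1.31, -0.44, 0.66 and 0.08. The exosome subunits had -1.21 in wild type and 0.23, 0.23 and 0.20 in the mutants, so that mre11delta was not set apart from rad50delta and spo11Y135F there.

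Changes of at least 2-fold showed the same contrast. At least 2-fold lower at 4 h were 37 of the 53 in wild type, 12 in mre11delta, 0 in rad50delta and 3 in spo11Y135F, against 31.1%, 10%, 5.94% and 26.2% of all genes. Relative to each array's median gene these counts were 34, 32, 4 and 4, against 24.7%, 24.7%, 23.5% and 28.1%. At least 2-fold higher were 0, 0, 13 and 11, against 15.5%, 40.6%, 34.4% and 22.7%. They were 0, 0, 2 and 11 relative to the median gene, against 20.7%, 18%, 13.5% and 21.6%. The changes of single genes ranged from -4.05 (NSR1) to 0.15 in wild type and from -1.93 to 3.12 (UTP15) in spo11Y135F.

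**Figure D4:**
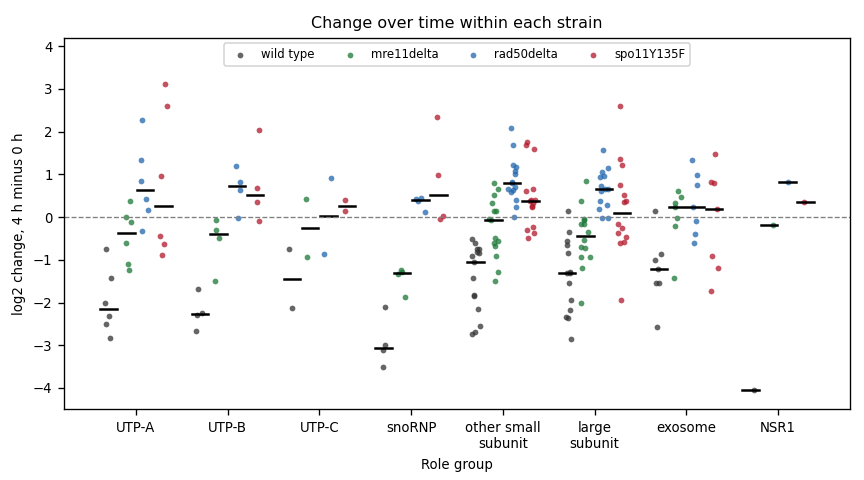
Change from 0 h to 4 h in log2(signal + 7) for each of the 53 factors in each strain, with genes in columns by role, colours for the strains and a bar at the median of each role in each strain. The wild-type medians lie lowest in every role, from -4.05 for NSR1 alone to -1.05 for the other small-subunit factors, and the rad50delta and spo11Y135F medians are all above 0.

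The difference between those changes was tested by an interaction of time with the extraction method of each strain's 0 h array, which sets rad50delta and spo11Y135F against wild type and mre11delta. It called 5 of the 53 factors higher in the RNeasy strains' change, UTP15, UTP23, NOP56, RRP9 and UTP9, and 0 lower, against 5.90% higher and 2.56% lower over all genes. With arrays centred on the median, 21 were called, against 12.5% of all genes, and 11.7% of all genes were then called lower. The median difference was 1.56 on the log2 scale against 0.06 for all genes, and 6 of the 53 were below 0, against 48.5%. Leaving out wild type, rad50delta or spo11Y135F left 0 of the 5 calls, and leaving out mre11delta gave 16 calls, the 5 among them. This comparison uses the 0 h arrays of the comparison by extraction method and all arrays of the comparison over time, so the 3 sets of values are not independent. A high 0 h value lowers the change, so the 0 h difference is part of the interaction. The remainder is the difference between the strain pairs at 4 h. The median 0 h difference of the 53 was -0.73, beside the median of 1.56 here. The 0 h part varied by gene: UTP23 had -2.98 at 0 h and 3.31 here, and UTP15 had -1.39 and 3.29. The difference between the strain pairs at 4 h was not tested by itself.

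UTP15 changed by -2.50 in wild type, 0.36 in mre11delta, 1.33 in rad50delta and 3.12 in spo11Y135F, a difference of 3.29 ± 1.01 (adjusted p = 0.0197). UTP23 changed by -2.54 in wild type, -0.67 in mre11delta, 1.67 in rad50delta and 1.75 in spo11Y135F, a difference of 3.31 ± 1.06 (adjusted p = 0.0281). In these 2 genes both RNeasy strains were above both Trizol strains, although UTP15 also had a positive change in mre11delta. NOP56 changed by -2.10 in wild type, -1.34 in mre11delta, 0.46 in rad50delta and 2.33 in spo11Y135F, with a difference of 3.12 ± 1.06 (adjusted p = 0.0426), and was far higher in spo11Y135F than in rad50delta. RRP9 changed by -3.10 in wild type, -1.87 in mre11delta, 0.11 in rad50delta and 0.98 in spo11Y135F, a difference of 3.03 ± 0.97 (adjusted p = 0.0268). UTP9 changed by -0.75 in wild type, 0.01 in mre11delta, 2.27 in rad50delta and 2.61 in spo11Y135F, a difference of 2.81 ± 0.95 (adjusted p = 0.0403). In UTP9 the Trizol strains moved by less than 1 on the log2 scale, while the values of the other 2 were higher by over 2.

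Over the set, 22 of the 53 had a negative change in both Trizol strains and a positive one in both RNeasy strains, against 9.35% of all genes, and 0 had the reverse, against 3.67%. Relative to the median gene these were 13, against 8.58%, and 0, against 12.4%. NSR1 had the largest spread among the rest, with changes of -4.05 in wild type, -0.18 in mre11delta, 0.83 in rad50delta and 0.36 in spo11Y135F, and its difference of 2.71 ± 1.06 did not pass (adjusted p = 0.0889). Without wild type the estimate of NSR1 was 0.78. RRP42 was among the 6 with a negative estimate, its changes being -1.21 in wild type, 0.48 in mre11delta, -0.08 in rad50delta and -1.18 in spo11Y135F, with no common order of the strain pairs.

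**Figure D5:**
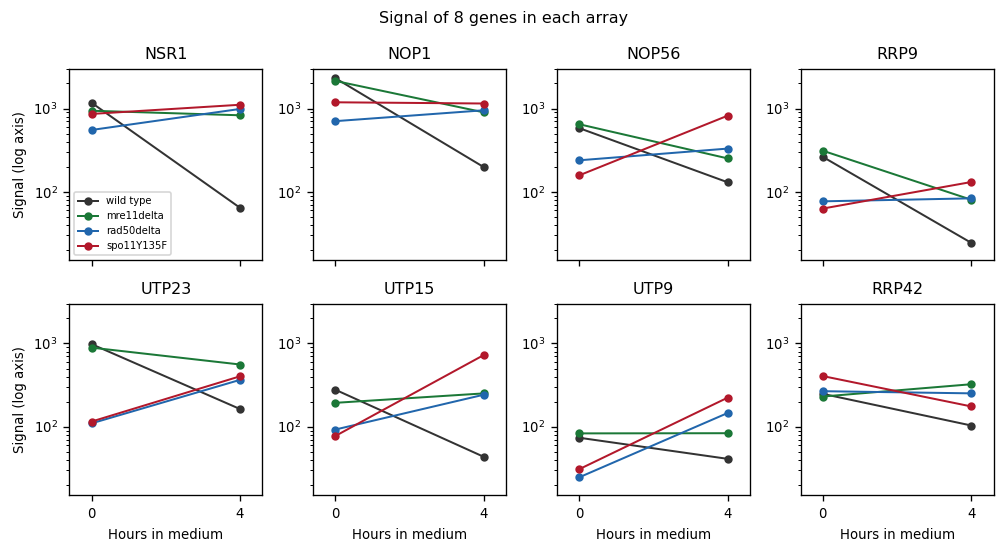
Signal at 0 h and 4 h in each strain, on a logarithmic axis, for NSR1, NOP1, NOP56, RRP9, UTP23, UTP15, UTP9 and RRP42. Lines join the 2 arrays of a strain: for NOP1 and RRP9 the wild-type and mre11delta lines slope down, for UTP9 and UTP15 the rad50delta and spo11Y135F lines slope up, and RRP42 shows no such split.

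Some summed marker signals also differed between the strain pairs at 4 h. The summed signal of the 12 haploid-specific genes at 4 h was 1761 in wild type, 2873 in mre11delta, 4719 in rad50delta and 7152 in spo11Y135F. This sum had the order of the factors' median relative levels, but the median of the 12 genes did not. Relative to the median gene, that median was -1.14 in wild type, -1.66 in mre11delta, -0.86 in rad50delta and -1.28 in spo11Y135F. For the difference in change, 7 of the 12 had an estimate below 0, against 48.5% of all genes. The summed signal of the middle meiotic genes NDT80, ADY3, GIP1, SPS1, SPS4 and CLB1 was between 272 and 374 in the 0 h arrays. At 4 h it was 2888 in wild type and 1417 in mre11delta, against 14251 in rad50delta and 20595 in spo11Y135F. At 4 h rad50delta and spo11Y135F had the higher factor levels relative to the median gene and the higher middle meiotic and haploid-specific sums. Between wild type and mre11delta, the factor level was higher in mre11delta and the middle meiotic sum lower. Whether these levels and sums go together was not tested. Stress markers ran from 12729 to 22597 at 4 h, with mre11delta at the top.

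Other lists of the pathway are read against the 18% of all genes called lower at 0 h in the RNeasy strains. Of 43 other small-subunit assembly factors measured, 15 (34.9%) were lower and 0 higher, with a median difference of -0.77 on the log2 scale against -0.01 for all genes. Relative changes of a list are given as its median change minus the median change of all genes. For these small-subunit factors they were -0.96 in wild type, -1.0 in mre11delta, 0.37 in rad50delta and 0.67 in spo11Y135F. Of 53 other large-subunit factors, 7 (13.2%, under the share of all genes) were lower and 0 higher, with a median of -0.62, and relative changes of -1.22, -1.18, 0.09 and 0.55. Among 10 further proteins of H/ACA particles and the exosome, 5 (50%) were lower. Among 11 subunits and initiation factors of RNA polymerase I, 6 (54.5%) were lower, and their relative changes were -1.18, -1.15, 0.62 and 1.05. Over time, 0 genes of the first 3 lists and 1 of the polymerase list passed, the latter upward.

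The cytosolic ribosomal proteins, which these factors help to assemble into ribosomes, differed from the factors in the test over time. Of 81 genes, 45 (55.6%) were lower at 4 h over the 4 strains, against 4.02% of all genes, and their relative changes were negative in all, at -2.64 in wild type, -2.28 in mre11delta, -1.26 in rad50delta and -0.61 in spo11Y135F. The difference in change between the strain pairs was like that of the factors, with a median of 1.48 on the log2 scale against 1.56. It was called higher in 19 of the 81 (23.5%), against 9.43% of the factors and 5.9% of all genes. The estimate was below 0 in 1 of the 81. At 0 h 68 of the 81 (84%) were lower in the RNeasy strains, against 18% of all genes, with a median of -0.89. For 28 of the 81 the only probe set is shared with related genes, so these values are not fully gene-specific. Of 12 regulators of the regulon, which include SFP1, SCH9, TOD6, DOT6 and STB3, 1 was lower and 1 higher at 0 h, with a median difference of 0.12.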

How the data were processed

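Signal intensities on a linear scale were used as deposited; the authors computed them with MAS5, per the submitters' processing notes, its version and the scaling between arrays being not given in the sources used here. Of 9335 probe sets, 6504 carry 1 gene, 328 several and 2503 none, 60 controls among the last; all 6504 matched a reference gene by identifier. Each of 5656 genes is represented by 1 set, chosen first for being gene-specific and next for its mean. Values were taken as log2(signal + 7), 7 being the 10th percentile of all values, so fold changes of low genes are understated. The 5475 genes with a mean of at least 21 (3 times 7) were tested.

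Tests used limma 3.58.1 in R 4.3.3, two-sided, with a mean-variance trend and Benjamini-Hochberg adjustment over all tested genes at 0.05. Change over time had strain as block, since the same strain gave both arrays (3 residual degrees of freedom); the 0 h comparison and the interaction each left 2. The ± values are limma's moderated standard errors. The number of arrays limits the precision. Strain values within a time have no test. Alternatives covered the pseudocount, filter, scaling, trend, probe sets, block, extraction method and each strain left out. Tables were summarised with pandas 2.3.3 in Python 3.11.15.

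On simulated data, the test over time called 0 of 67 planted changes of 1 in log2, 6 of 67 of 2 and 52 of 66 of 4. The 0 h test called 6 of 67, 41 of 67 and 59 of 66, and the interaction test called none of the 200 planted. Each simulated gene had its own spread, whereas the interaction fit to the real arrays used a common spread for genes of like mean. The interaction recovery therefore does not measure what that test finds in the real arrays. False calls were 2, 5 and 0 of 5275.

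The genes, role groups and lists were chosen with earlier results of these data known. Genes were named by rule: NSR1, the smallest p-values in each role, the largest estimates on either side, every called gene and every gene standing apart in 1 strain. Promoter and protein sequences were not analysed here.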

Additional observations from a re-analysis of the deposited data

Results flagged for a closer look

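In 5 factors the change from 0 h to 4 h differed between the strain pairs by the interaction test of limma, adjusted over all 5475 genes. As deposited, these are 9.43% of the 53, against 5.90% of all genes called in that direction, a share near the background. With arrays centred on the median, 21 (39.6%) were called, against 12.5% of all genes. The change was higher in rad50delta and spo11Y135F than in wild type and mre11delta by 3.29 on the log2 scale for UTP15 (adjusted p = 0.0197), 3.31 for UTP23 (adjusted p = 0.0281), 3.12 for NOP56 (adjusted p = 0.0426), 3.03 for RRP9 (adjusted p = 0.0268) and 2.81 for UTP9 (adjusted p = 0.0403). In each of the 5, both strains of the first pair were above both of the second, an order that the choice of genes by this test favours. The strain pairs are also the pairs by extraction method of the 0 h array, which cannot be told apart. In simulated data the same test recovered none of 66 planted differences of 4 in log2. Each simulated gene had its own spread, unlike the fit to the real arrays. That recovery therefore does not measure what the test finds in the real arrays. Without wild type, rad50delta or spo11Y135F none of the 5 was called by this test.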

How the results depend on the processing

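Over time, 0 of the 53 were called lower or higher except under 3 settings: 3 lower with centred arrays, 2 lower with quantile normalization (RRP6 and UTP5), and 4 higher within the RNeasy pairs alone (UTP9, UTP15, NOP12 and UTP23), where the median relative to all genes turned from -0.45 to 0.29. With no replicate block for strain, 0 of the 53 were called, and over all genes 615 were higher and 205 lower against 582 and 220 in the paired fit. Centring gave 409 higher and 560 lower. Within the RNeasy pairs these time estimates turned positive: NOP1 0.19, NOP58 0.20, NSR1 0.60, RRP3 0.57, RRP40 0.52, RRP9 0.55, UTP13 0.36, UTP21 0.16 and UTP22 0.66. With the extraction method as covariate NSR1 was 0.34, UTP13 0.077 and UTP22 0.13. The method varied within wild type alone, so these are the same estimates as without wild type and no separate check. With 1 strain left out, ranges over time that crossed 0 were -1.29 to 0.34 for NSR1, -0.94 to 0.077 for UTP13, -0.89 to 0.13 for UTP22 and -0.27 to 1.61 for UTP15.

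At 0 h, the count called lower ran from 3 to 30 and that called higher from 0 to 1 with 1 strain left out, and RRP7 ran from -0.076 to 0.73. All other settings gave 18 to 29 lower. For the difference in change, 21 were called higher with centred arrays, 22 with quantile normalization, 11 without the mean-variance trend, and 0 to 16 with 1 strain left out, while over all genes centring moved 323 higher and 140 lower to 682 and 638. Its relative median of 1.5 was 1.27 with a pseudocount of 32. RRP42 ran from -1.11 to 0.58 and RRP6 from -1.14 to 0.37 with 1 strain left out. Within strains, the count at least 2-fold lower in mre11delta was 32 with centred arrays and 30 with quantile normalization, against 12 as deposited. In rad50delta it was 4 and 5 against 0, and the count higher was 2 and 2 against 13. The cause of these shifts was not tested beyond what the settings themselves change. UTP20, whose probe sets disagree, and UTP6 and NOP53 are limited by signal near the floor.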

Other observations

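The array also carries control probe sets for ribosomal RNA, the product of the pathway, although polyadenylated RNA was selected before labelling. The mean signal of those for the 25S ribosomal RNA was 4080 in wild type, 2470 in mre11delta, 2554 in rad50delta and 3044 in spo11Y135F at 0 h, and 1016, 951, 326 and 718 at 4 h. For the 18S ribosomal RNA it was 2193, 512, 882 and 814 at 0 h and 421, 384, 129 and 310 at 4 h. In each strain both were lower at 4 h, with the lowest values in rad50delta. How much of this signal comes from incomplete selection of polyadenylated RNA was not tested.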
